A study of Homo sapiens with 6 samples.

Results

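The genes of insulin and insulin-like growth factor (IGF) signaling examined here were 10: the adaptors IRS1 and IRS2, the receptors INSR, IGF1R and IGF2R, and the secreted binding proteins IGFBP2, IGFBP3, IGFBP4, IGFBP6 and IGFBP7. They were taken as the probes whose annotated symbol is one of these names, which gave 1 probe for each of the 10 genes among 17687 named genes on the array. RNA had been measured on Affymetrix Clariom S arrays in 2 established ovarian cancer lines, with 1 array per siRNA and 6 arrays in all. RMG1, a line from clear cell carcinoma, received siControl, siCPNE8 #A or siCPNE8 #B, and OVCAR3, a line from high-grade serous carcinoma, received siControl, siBHLHE41 #A or siBHLHE41 #B. All 6 cultures were thus transfected with an siRNA, and an untransfected culture was not analysed here. CPNE8 encodes a copine, which binds membrane lipids when calcium is present, and BHLHE41 encodes a transcriptional repressor of the circadian clock. #A and #B are different siRNA sequences against the same mRNA. The labels place RMG1 in DMEM and OVCAR3 in RPMI while the study's methods give the reverse, so that line and medium cannot be told apart.

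Insulin and the IGFs bind INSR and IGF1R, which are receptor tyrosine kinases. The active receptors phosphorylate IRS1 and IRS2, and these adaptors recruit phosphoinositide 3-kinase, which leads to AKT, to mTOR and to the exclusion of FOXO transcription factors from the nucleus. IGF2R, the cation-independent mannose 6-phosphate receptor, has no kinase and carries IGF2 to lysosomes for degradation. The IGFBPs hold IGFs in extracellular fluid, and proteases such as PAPPA cleave some of them and free the IGFs. In liver, FOXO factors raise IRS2 transcription when insulin is low. In ovarian carcinoma the pathway is known chiefly for signals to growth and survival.

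Promoter sequences are shown for IRS2 and IGF2R, because these were the members past the ratio criterion with both siRNAs of a line and above background. The sequences come from RefSeq (GRCh38.p14) and run from 250 bases before to 50 bases after the annotated start, 5′ to 3′ on the strand of the gene. Of the 10 members 9 had such a window, and IGFBP7 is named only. In capitals stand the insulin response sequence TTGTTTTG, which FOXO factors can bind, and the E-box CACGTG, which BHLHE41 and other basic helix-loop-helix proteins can bind, with both strands searched. The window of IRS2 lies at chr13:109786534-109786833 on the minus strand and that of IGF2R at chr6:159968832-159969131 on the plus strand.
IRS2: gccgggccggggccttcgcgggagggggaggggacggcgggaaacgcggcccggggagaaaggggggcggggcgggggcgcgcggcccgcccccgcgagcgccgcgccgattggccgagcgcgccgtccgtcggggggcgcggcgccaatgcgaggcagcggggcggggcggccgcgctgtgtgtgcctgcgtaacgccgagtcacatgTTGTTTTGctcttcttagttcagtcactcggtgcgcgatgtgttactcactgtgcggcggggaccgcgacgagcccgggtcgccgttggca
IGF2R: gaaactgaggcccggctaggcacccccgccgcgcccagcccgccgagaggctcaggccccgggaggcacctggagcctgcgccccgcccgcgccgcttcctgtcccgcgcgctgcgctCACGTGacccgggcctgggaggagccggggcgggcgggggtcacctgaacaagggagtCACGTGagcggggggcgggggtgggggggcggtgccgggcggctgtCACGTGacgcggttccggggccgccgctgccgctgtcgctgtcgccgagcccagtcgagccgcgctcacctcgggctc

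The IRS2 window held 1 insulin response sequence, which began 41 bases before the start, and these letters occurred in 1.68% of 35116 promoter windows. This motif was added to the search after the letters of the window had been seen. The IGF2R window held 3 E-boxes, beginning 132, 74 and 28 bases before the start. At least 1 E-box occurred in 7.26% of all windows, and 33 windows (0.094%) held 3 or more, a count chosen after the IGF2R window had been seen. Among the other members, IRS1 had 1 E-box, which began at base 36 after the start, and none of the other windows had an E-box. The GC box GGGCGG was in 10 of the 11 windows of the members and in 44.95% of all windows, the FOXO core TGTTTAC only in that of IGFBP6 (3.42% of all windows) and the AP-1 letters TGACTCA in none of them (4.95% of all windows). The share of G and C in the members' windows ran from 55.33% to 79.67%, with a median of 58.67% over all windows, and IGFBP2 had windows below that median. A match of letters is a description of the window and no measurement of binding.

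All values were deposited as log2 signals, and a level was called above background where it exceeded percentile 95 of that array's 612 negative control probes, which lay between 7.86 and 8.47. The share of transcript probes above background was 37.2% with siBHLHE41 #A and between 39% and 41.2% in the other arrays. CPNE8 stood at 0.117 of its siControl signal with siCPNE8 #A and at 0.278 with #B, and BHLHE41 stood at 0.35 and 0.542 with siBHLHE41 #A and #B. All 6 epithelial markers (EPCAM, KRT8, KRT18, KRT19, CDH1 and CLDN4) were above background in every array, and none of 5 leukocyte and 5 endothelial markers was above it in any array. Of 5 fibroblast markers COL1A2 was above background in every array of both lines, and of 4 liver markers SERPINA1 in all OVCAR3 arrays. Of 7 measured clear cell carcinoma markers ANXA4, VCAN and TFPI2 were above background in every array of both lines. NAPSA, ARID5A, RBPMS2 and CEACAM6 were above it in no array. Of 8 serous carcinoma markers PAX8 and MUC16 were above background in every array of both lines, and ESR1, MSLN, FOLR1 and SOX17 in none. CDKN2A was above it in all OVCAR3 arrays and WT1 in some OVCAR3 arrays, and neither in any RMG1 array. In bulk RNA, fewer cells that express a gene and less RNA per cell cannot be told apart. Each siRNA had 1 array, and no source used here describes repeat cultures of one siRNA. The p-values therefore measure only the spread between these samples, which may be technical. In the siRNA comparisons this spread is that between #A and #B of a line, so differences between the siRNA sequences are part of it.

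Of the 10 members, IRS2, IGF2R and IGFBP3 were above background in all 6 arrays, IGF1R in 5 and IGFBP7 in the 3 RMG1 arrays. IRS1, INSR, IGFBP2, IGFBP4 and IGFBP6 were above background in no array, so their values below are at or near the floor of the measurement, and ratios between them do not measure a change. The plot of the members' levels shows that IGFBP7 had the widest distance between the lines and that 5 genes lay left of the background band.

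**Figure D1:**
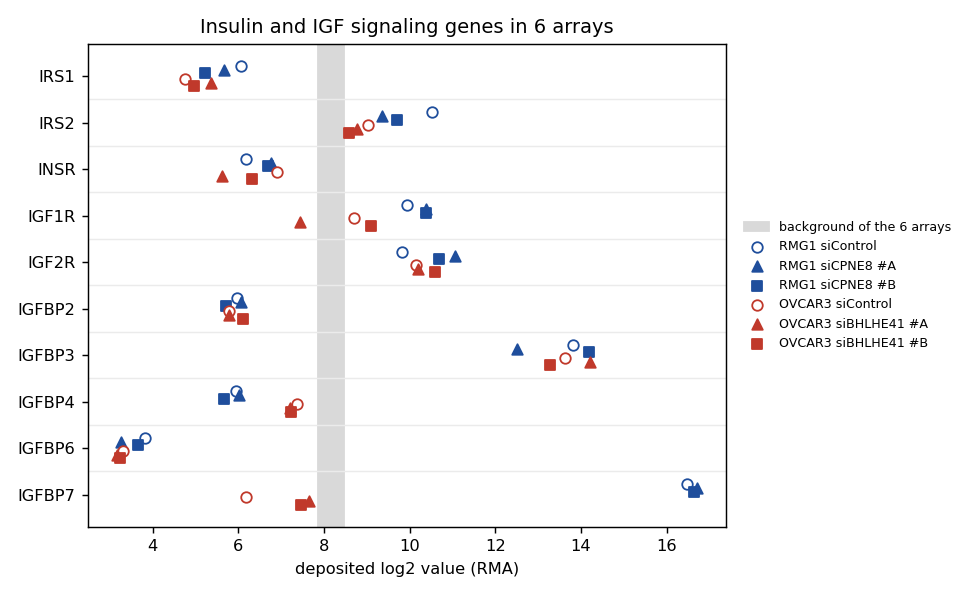
Deposited log2 value (x axis) of the 10 members in each of the 6 arrays, with RMG1 in blue and OVCAR3 in red, open circles for siControl, triangles for siRNA #A and squares for siRNA #B; the grey band spans the background of the 6 arrays (7.86 to 8.47). IGFBP7 lay between 16.47 and 16.71 in RMG1 and between 6.19 and 7.64 in OVCAR3, and IRS1, INSR, IGFBP2, IGFBP4 and IGFBP6 lay left of the band in all arrays.

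The comparison of siCPNE8 with siControl asks which transcripts of RMG1 cells depend on CPNE8. The adaptor IRS2 lay below siControl (0.502-fold by mean log2 ratio) and the receptor IGF2R above it (2.05-fold) with both siRNAs, and the other 8 members did not pass the ratio criterion. A gene passed it when #A and #B each put it over 1.5-fold, or each under 0.66-fold, of the line's siControl array, which is the study's own limit for its probe lists. Past the upper limit with both siCPNE8 siRNAs were 2.51% of all named genes, and past the lower limit 2.7%. Among the 7985 named genes above background in an RMG1 array, these shares were 2.71% and 2.07%. At an adjusted p under 0.05, limma called 0 of 21448 transcript probes (0%) in this comparison. An unadjusted p under 0.05 was found for 1181 probes (5.51%) and 5.52% of all named genes, shares near the threshold itself. Among the 10 members it was found for 2, IRS2 and IGF2R. The median of the mean log2 ratios was -0.09 over the 10 members and -0.01 over all named genes.

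IRS2 had a log2 value of 10.52 in the siControl array, 9.35 under #A and 9.71 under #B. Both knockdown arrays were thus below the control array, and all 3 were above background. The IRS2 signal was 0.443 of siControl with #A and 0.57 with #B, a mean log2 ratio of -0.99 ± 0.26 (SD over 2 siRNAs). For IRS2 limma's standard error was 0.29 and its adjusted p 0.859. By mean log2 ratio IRS2 was number 116 from the lowest of the 7985 genes above background. IRS1, the adaptor that shares its receptor partners, read 6.05, 5.66 and 5.23 in the same arrays, also below siControl with both siRNAs but under background throughout.

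IGF2R, which removes IGF2 from the cell surface, lay on the other side of its control. Its log2 value was 9.83 in the siControl array, 11.05 under #A and 10.68 under #B, and both siCPNE8 arrays lay above the other 4 arrays of the series. The signal was 2.34-fold and 1.80-fold of siControl, a mean log2 ratio of 1.04 ± 0.27 (SD over 2 siRNAs). For IGF2R limma's standard error was 0.31 and its adjusted p 0.859. IGF2R was number 83 from the highest of the 7985 genes above background. At a stricter limit of 2-fold and 0.5-fold neither IRS2 nor IGF2R passed with both siRNAs.

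IGF1R, the kinase receptor for IGF1 and IGF2, read 9.93 in the siControl array, 10.37 under #A and 10.38 under #B in RMG1. Its log2 ratios of 0.44 and 0.45 differed by 0.01, whereas the median gap between the siRNAs was 0.24 over the genes above background. It stayed under the 1.5-fold limit, and its adjusted p from limma was 0.99. INSR, the insulin receptor, read 6.17, 6.75 and 6.69 and was under background in each array. Neither IGF1R nor INSR passed the ratio criterion, and either siRNA is compared with the same control array.

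Among the binding proteins of RMG1 cells, IGFBP3 and IGFBP7 were above background. IGFBP3, the main carrier of IGFs in plasma, read 13.82 in the siControl array, 12.50 under #A and 14.18 under #B. The siRNAs put IGFBP3 on opposite sides of the control, at 0.403 and 1.29 of its signal. The gap of 1.68 on the log2 scale between #A and #B was at percentile 99.6 of the gaps among the genes above background. Its mean log2 ratio was -0.47 ± 1.19 (SD over 2 siRNAs), smaller than its spread. IGFBP7, which binds IGFs weakly, read 16.47, 16.71 and 16.65, a mean log2 ratio of 0.21 ± 0.05 (SD over 2 siRNAs) with an adjusted p of 0.99 from limma. IGFBP2 lay between 5.71 and 6.06, IGFBP4 between 5.67 and 6.03 and IGFBP6 between 3.27 and 3.83 in the 3 RMG1 arrays, all under background.

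**Figure D2:**
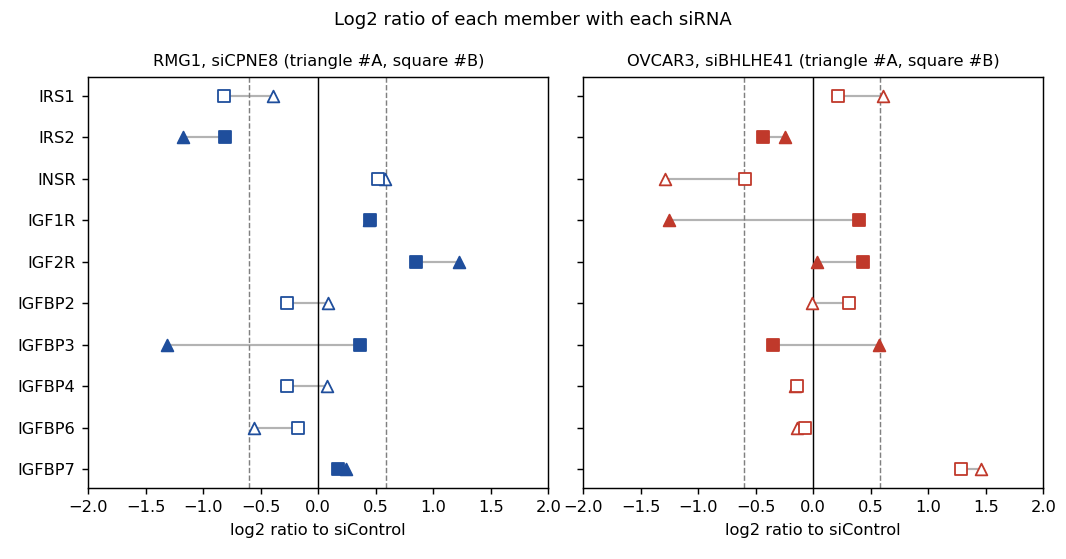
Log2 ratio of each member to the siControl array of its line (x axis), left for RMG1 with siCPNE8 and right for OVCAR3 with siBHLHE41, with a triangle for siRNA #A and a square for #B; filled symbols mark genes above background in an array of the line, and dashed lines mark 1.5-fold and 0.66-fold. IRS2 and IGF2R are past the dashed lines with both siRNAs in RMG1, and IGFBP3 in RMG1 and IGF1R in OVCAR3 straddle 0.

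The arrays of OVCAR3 cells ask the same of BHLHE41. No member above background passed the ratio criterion with both siBHLHE41 siRNAs. IGFBP7 passed it from levels under background. With siBHLHE41 #A alone 4 members passed (IRS1, INSR, IGF1R and IGFBP7), and with #B alone 1, against 14.2% and 14.9% of all named genes past either limit. IRS1, INSR and IGFBP7 were under background, as was the #A value of IGF1R. Past the upper limit with both siRNAs were 3.06% of all named genes and past the lower limit 2.14%. Among the 7835 named genes above background in an OVCAR3 array the shares were 3.7% and 2.04%. limma called 0 of 21448 transcript probes (0%) at an adjusted p under 0.05. An unadjusted p under 0.05 was found for 1099 probes (5.12%) and 5.20% of all named genes, again near the threshold itself. Among the 10 members it was found for 2, INSR and IGFBP7, both under background. The median of the members' mean log2 ratios was 0.00, against -0.01 over all named genes.

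IRS2 read 9.03 in the siControl array, 8.78 under #A and 8.59 under #B, again below siControl with both siRNAs. The mean log2 ratio was -0.34 ± 0.14 (SD over 2 siRNAs), with an adjusted p of 0.988 from limma, and the ratios of 0.845 and 0.737 did not reach 0.66. IRS1 read 4.76, 5.36 and 4.98, all under background. The OVCAR3 ratios have a control array of their own, and whether the siRNA effects differ between the lines was not tested, since the siRNAs have different targets.

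Of the receptors, IGF1R differed most between the siBHLHE41 siRNAs. Its log2 value was 8.70 in the siControl array, 7.45 under #A and 9.10 under #B, so that #A was below and #B above the control. Only the #A array was under background for IGF1R, and its value was also under the lowest background of the 6 arrays (7.86). The #A array had the highest background (8.47) and the lowest share of transcript probes above it. The part of either in this value was not tested. The gap of 1.65 between #A and #B was at percentile 99.2 of the gaps among the genes above background, and the mean log2 ratio was -0.43 ± 1.17 (SD over 2 siRNAs). IGF2R read 10.15, 10.18 and 10.58, close to the control with #A and 1.35-fold of it with #B. INSR read 6.91, 5.62 and 6.31 and was under background in each array. Its ratio with #B lay just above the 0.66-fold limit, and after quantile normalization or centring INSR passed the criterion as lower, so that 2 members passed (INSR and IGFBP7).

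IGFBP3 in OVCAR3 read 13.63 in the siControl array, 14.20 under #A and 13.28 under #B. As in RMG1 the siRNAs fell on opposite sides of the control, at 1.48-fold and 0.785-fold, and the mean log2 ratio of 0.11 ± 0.65 (SD over 2 siRNAs) was smaller than its spread. IGFBP7 read 6.19 in the siControl array, 7.64 under #A and 7.47 under #B. Its log2 ratios of 1.46 and 1.28 were close to each other, where limma's standard error was 0.26 and its adjusted p 0.858, but none of these values was above the background of its array. IGFBP2 lay between 5.78 and 6.10, IGFBP4 between 7.21 and 7.37 and IGFBP6 between 3.17 and 3.31, all under background.

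**Figure D3:**
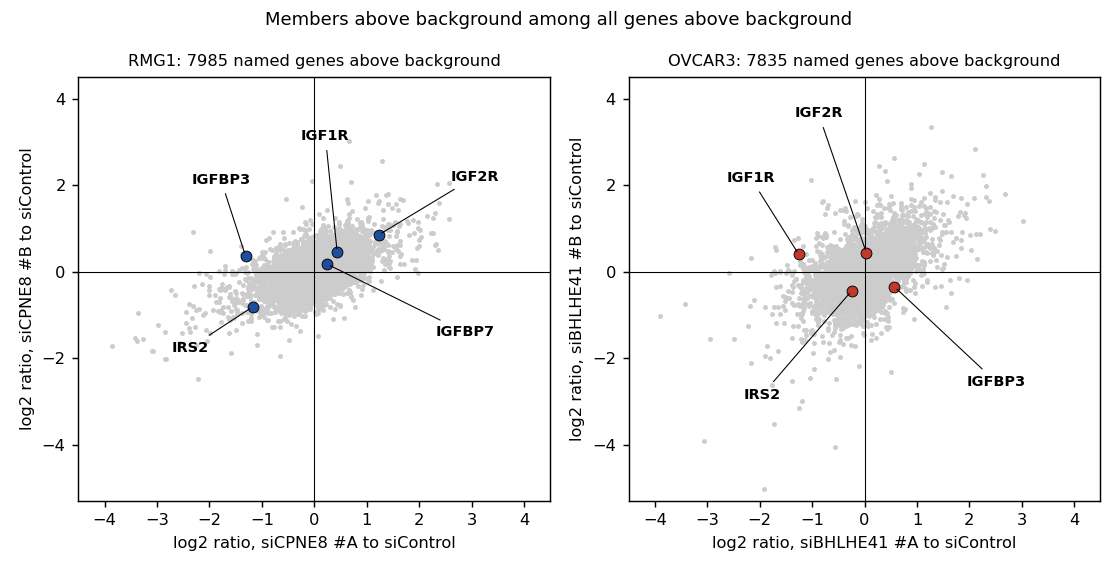
Log2 ratio with siRNA #A (x axis) against siRNA #B (y axis) for the named genes above background in an array of the line (grey), with the members above background in colour; left RMG1 (7985 genes), right OVCAR3 (7835 genes). Both ratios of a gene share 1 control array and are not independent; IGFBP3 in both lines and IGF1R in OVCAR3 have ratios of opposite sign.

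A search for the genes with the most similar 6 values, each gene centred on its own mean, was made for IRS2 and IGF2R over 8734 other named genes above background in an array. The genes nearest to IRS2 were CHAC1, which degrades glutathione, the CDC42 effector CDC42EP1 and the Toll-like receptor TLR6, with root mean square differences of 0.15, 0.16 and 0.18 on the log2 scale. CDC42EP1 was above background in every array and read 11.04, 10.33 and 10.64 in RMG1 with siControl, #A and #B and between 9.22 and 9.74 in OVCAR3. CHAC1 was above background only in the RMG1 siControl array, and TLR6 only in the RMG1 arrays with siControl and #B, so their likeness rests largely on values under background. The genes nearest to IGF2R were RUSF1, the HLA class II chaperone gene HLA-DMA and the zinc finger gene ZNF397, at 0.06, 0.11 and 0.14. HLA-DMA and ZNF397 were each above background only with siCPNE8 #A and #B and siBHLHE41 #B. RUSF1, above background in every array, read 8.85, 10.25 and 9.81 in RMG1 and 9.33, 9.33 and 9.72 in OVCAR3. With 6 arrays and 8734 genes, near matches are a description only.

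The remaining genes of the pathway were described with a list of 136 names, of which 119 were measured. Both siCPNE8 siRNAs put 1 of them past the upper and 5 past the lower limit in RMG1, and both siBHLHE41 siRNAs put 6 past the upper and 4 past the lower limit in OVCAR3. Together these were 5.04% of the 119 genes in RMG1 and 8.40% in OVCAR3, beside 5.21% and 5.20% of all named genes. Above background in an array of the line were 1 and 2 of these in RMG1 and 5 and 2 in OVCAR3. The median of the mean log2 ratios was 0.01 in RMG1 and 0.03 in OVCAR3, against -0.01 in both lines over all named genes. limma called 0 of the 119 genes at an adjusted p under 0.05 in either line, with 6 in RMG1 (5.04%, all named genes 5.52%) and 8 in OVCAR3 (6.72%, all named genes 5.20%) at an unadjusted p under 0.05.

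In RMG1 the genes of the list past the criterion and above background were the PAPPA inhibitor STC1 and the glucose genes SLC2A1 and HK2. STC1, stanniocalcin 1, read 10.57 in the siControl array, 11.81 under #A and 11.49 under #B, a mean log2 ratio of 1.08 ± 0.22 (SD over 2 siRNAs). SLC2A1, the glucose carrier GLUT1, read 14.04, 13.24 and 13.38, a mean log2 ratio of -0.73 ± 0.10 (SD over 2 siRNAs). HK2, hexokinase 2, read 9.25, 7.45 and 8.32, and was not above background with #A. These 3 genes had adjusted p-values of 0.859 to 0.894 from limma. TRIB2, SESN3 and FBXO32 were past the lower limit in RMG1 from levels under background.

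In OVCAR3, 5 genes of the list were past the upper limit and 2 past the lower limit with both siBHLHE41 siRNAs and above background in an array. The ligand gene IGF1 read 7.04 in the siControl array, 8.88 under #A and 7.77 under #B and was above background only with #A. DEPTOR, an inhibitor of mTOR, read 8.17, 9.05 and 9.86, and its control value was not above background. TXNIP and CCNG2, both induced by FOXO factors, read 7.69, 8.70 and 8.90 and 13.18, 13.77 and 13.81, and TXNIP was not above background with siControl. GSK3B, the glycogen synthase kinase that AKT inhibits, read 13.05, 13.68 and 13.67. STC2, a relative of STC1, read 8.59, 7.48 and 7.12, and DDIT4, which restrains mTOR through the TSC complex, read 8.25, 7.12 and 6.68. Both were above background only with siControl. FURIN was past the upper limit, and ADAM28 and DOK4 were past the lower limit, from levels under background.

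Of the genes closest to the members, IGF2 lay between 3.37 and 3.90 and IGFBP5 between 3.99 and 4.94 over the 6 arrays, both under background. IGFBP1, a binding protein that insulin lowers in liver, read 7.37, 8.03 and 7.29 in RMG1, above background only with siCPNE8 #A, and between 5.28 and 5.62 in OVCAR3. IGF1 lay between 6.32 and 6.97 in RMG1, under background.

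**Figure D4:**
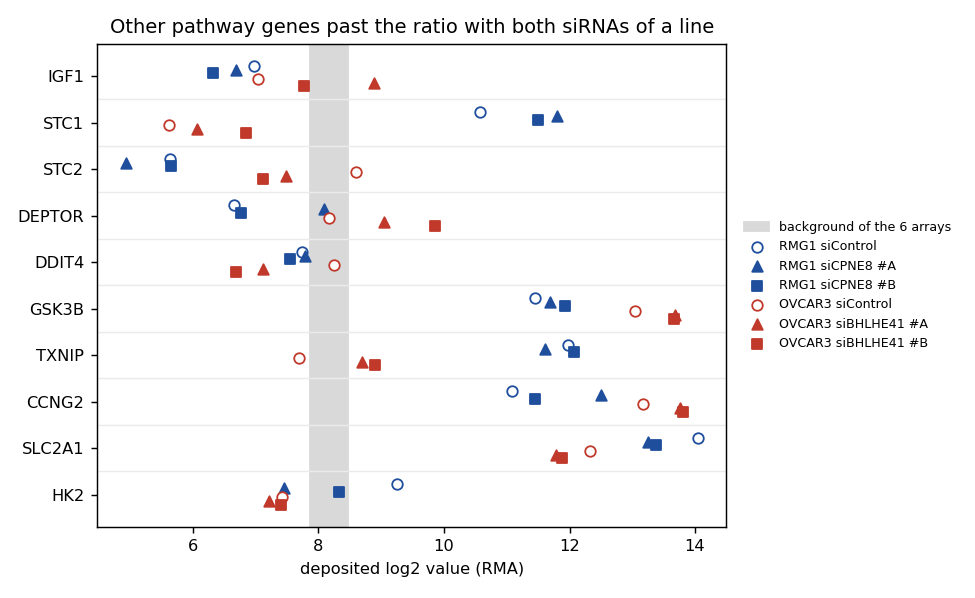
Deposited log2 values (x axis) in the 6 arrays for the 10 other pathway genes that passed the ratio criterion with both siRNAs of a line and were above background in an array of that line, with symbols and background band as in the plot of the members' levels. STC1 lay between 10.57 and 11.81 in RMG1 and left of the band in OVCAR3, and the IGF1 value with siBHLHE41 #A (8.88) is its only value right of the band.

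The levels of the lines themselves were compared with 3 arrays of each, whose spread then includes the siRNA effects. IGFBP7, IGF1R and IRS2 were higher in RMG1. IGFBP4 also passed the test, with higher values in OVCAR3, but was under background in every array. The other 6 members did not pass the test. Of 21448 transcript probes limma called 17.8% higher and 19.2% lower in RMG1 at an adjusted p under 0.05, so that 4 of 10 members is near the share of all probes. The 3 arrays of one line lay apart from the 3 of the other for 4 members, against 49.8% of all named genes.

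IGFBP7 gave the widest difference among the members. Its mean log2 value was 16.61 ± 0.13 in RMG1 and 7.10 ± 0.80 in OVCAR3 (SD, n = 3 arrays), where it was not above background. Set against the background of the OVCAR3 arrays, IGFBP7 was at least 339-fold higher in RMG1, and the measured means were 9.51 apart on the log2 scale (standard error 0.35, adjusted p 1.93e-07 by limma). Since the OVCAR3 values lie under background, the size of the difference is known only as this bound. The RMG1 values exceed 16, so a further rescaling, which is not described, may have stretched or shrunk the difference. The bound therefore holds only on the deposited scale.

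IGF1R had a mean of 10.23 ± 0.26 in RMG1 and 8.41 ± 0.86 in OVCAR3 (SD, n = 3 arrays), 3.52-fold higher in RMG1 with an adjusted p of 0.00446 from limma. This difference was 1.82 on the log2 scale. It was 1.33 without the siBHLHE41 #A array, where IGF1R was under background, and 1.24 between the siControl arrays. IRS2 had means of 9.86 ± 0.60 and 8.80 ± 0.22, 2.09-fold higher in RMG1 with an adjusted p of 0.0175 from limma. Without the siBHLHE41 #A array the adjusted p of IRS2 from limma was 0.0511, and without the #B array it was 0.0607. Without the OVCAR3 siControl array it was 0.0283. The IRS2 difference itself was 1.06 on the log2 scale with all arrays, 1.05 without siBHLHE41 #A and 0.96 without #B. It was lowest, at 0.73, without the RMG1 siControl array, where the adjusted p from limma was 0.0348. Leaving out either siBHLHE41 array thus moved the adjusted p of IRS2 past 0.05 with little change in the difference. The lowest IRS2 value of RMG1 (9.35, siCPNE8 #A) was still above the highest of OVCAR3 (9.03, siControl). IGFBP4, which holds IGFs until PAPPA cleaves it, had means of 5.88 ± 0.19 in RMG1 and 7.27 ± 0.09 in OVCAR3, with an adjusted p of 0.000196 from limma, although both lines were under background.

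IGF2R and IGFBP3 overlapped between the lines. IGF2R had means of 10.52 ± 0.63 in RMG1 and 10.31 ± 0.24 in OVCAR3, 0.21 apart (standard error 0.30, adjusted p 0.638 by limma). IGFBP3 had means of 13.50 ± 0.88 and 13.70 ± 0.46, a difference of -0.20 (standard error 0.41, adjusted p 0.75 by limma). The sign of this small difference turned without siCPNE8 #A or without siBHLHE41 #A. IRS1, with 5.65 ± 0.41 and 5.03 ± 0.31, had an adjusted p of 0.0847 from limma and 0.0351 without the siCPNE8 #B array. It was 0.0340 in the fit of 4 groups, where 5 members and 7166 of 21448 transcript probes were called. IRS1 was under background in all arrays.

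**Figure D5:**
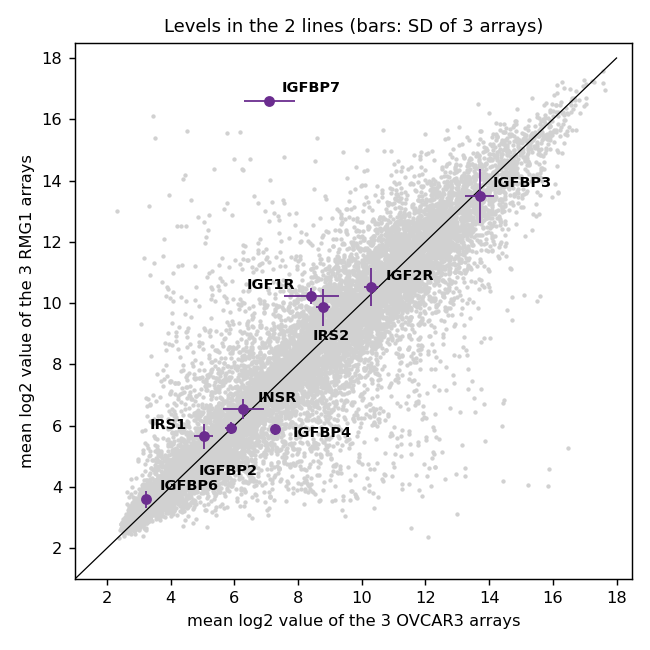
Mean log2 value of the 3 OVCAR3 arrays (x axis) against the mean of the 3 RMG1 arrays (y axis) for all named genes (grey) and the members (purple, bars are the SD of 3 arrays); the line marks equal values. IGFBP7 stands far above the line (16.61 against 7.10), IGF1R and IRS2 lie above it, and IGFBP4 lies below it at 5.88 against 7.27.

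Ordered by level over the 4 conditions, IRS2 ran from RMG1 siControl (10.52) through RMG1 siCPNE8 (9.35 and 9.71) and OVCAR3 siControl (9.03) to OVCAR3 siBHLHE41 (8.78 and 8.59), with no overlap between neighbouring conditions. The distance from the lower siCPNE8 array to OVCAR3 siControl was smaller than that between the siCPNE8 arrays (0.36), so these neighbours do not differ beyond their spread. IGF1R was highest in RMG1 siCPNE8 (10.37 and 10.38), followed by RMG1 siControl (9.93), while OVCAR3 siControl (8.70) lay between both siBHLHE41 arrays. IGF2R was highest in RMG1 siCPNE8 (11.05 and 10.68), followed by OVCAR3 siBHLHE41 (10.18 and 10.58), OVCAR3 siControl (10.15) and RMG1 siControl (9.83). The siControl arrays of the lines were closer to each other for IGF2R than the siBHLHE41 arrays, whose gap was 0.40. The nearest values of neighbouring conditions (10.68 and 10.58, 10.18 and 10.15) were also closer than the siRNAs of either line. The steps between neighbours in this order therefore do not go beyond the spread. The ends of the order did, since RMG1 siControl lay 0.85 below the lower siCPNE8 array, against a gap of 0.38 between the siCPNE8 arrays. For IGFBP3 the siRNA arrays of each line enclosed its control, so that its conditions have no order beyond their spread.

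Of the 119 other pathway genes 31 were higher and 38 lower in RMG1 at an adjusted p under 0.05 from limma. Together these were 58%, against 38.5% of all named genes. Above background in no array were 36 of the 119 genes and 8952 of the 17687 named genes, so the sets differ in detection. With probes above background in no array left out, limma called 6339 of 10007 probes, and no matching share of the listed genes is given. No test was made of the difference in shares. The 8 called genes with the widest differences of measured means are given here, and since most were under background in one line, their differences have no order. Lower in RMG1 were SESN3, a stress-induced inhibitor of mTOR, with log2 values of 3.34 to 4.16 in RMG1 and 9.10 to 10.94 in OVCAR3, and FBXO32, a ubiquitin ligase gene that FOXO factors induce, with 4.89 to 5.96 and 10.42 to 11.92. SLC2A12, a glucose carrier, ran from 7.97 to 8.55 and from 12.86 to 13.94, the sorting receptor SORL1 from 4.36 to 5.11 and from 9.05 to 9.27, and the Tribbles pseudokinase TRIB2 from 3.40 to 4.43 and from 8.12 to 8.39. Higher in RMG1 were STC1, INPP4B, a phosphatase of phosphoinositides, and the transcription factor FOXO1. STC1 ran from 10.57 to 11.81 in RMG1 and from 5.61 to 6.84 in OVCAR3, INPP4B from 11.26 to 11.91 and from 5.94 to 7.37, and FOXO1 from 10.91 to 11.38 and from 7.34 to 7.47. STC1, INPP4B and FOXO1 were under background in all 3 OVCAR3 arrays and were at least 8.48-fold, 9.72-fold and 7.96-fold higher in RMG1, and SESN3, FBXO32 and SORL1 were at least 3.79-fold, 9.19-fold and 2.33-fold higher in OVCAR3. TRIB2 was above background in 1 OVCAR3 array only, and no bound is given for it. The adjusted p-values of these 8 genes lay between 7.47e-07 and 9.22e-06.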

How the data were processed

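The authors deposited log2 values for 24351 probes of 6 Affymetrix Clariom S arrays (21448 transcript and 2903 control probes), made with RMA in Affymetrix Expression Console per the labels. RMA corrects background, normalizes between arrays and summarises each transcript. Which software version they ran was not given in the sources used here. Each array's highest value, 17.73 to 18.35, exceeds 16, so a further rescaling, which can stretch or shrink ratios, is not described. Symbols came from the array annotation and named 17709 probes, 0 of them with several symbols; genes with several probes were averaged. Pearson's r between arrays within a line was 0.99 to 0.993. Log2 ratios used each line's own siControl array. limma 3.58.1 (R 4.3.3, lmFit and eBayes) was fitted across all transcript probes, with 4 groups for the siRNAs (2 residual degrees of freedom, which assume that control arrays vary like the siRNA pairs) and with the line as only factor for the levels, two-sided with Benjamini-Hochberg adjustment. A check of limma on simulated data used changes of at least 2 on the log2 scale. These were wider than those of IRS2 and IGF2R with siCPNE8, so the check does not cover changes of that size. The number of arrays limits the precision. Members, gene lists and tests were chosen with earlier results of these data known. Genes named are the 10 members, the targeted genes, listed pathway genes past the ratio with both siRNAs or among the 8 widest line differences of measured means, 4 ligand and binding protein genes, and the 3 nearest patterns. Alternatives were other thresholds, quantile normalization, centring, a variance trend, other probe sets or arrays and each array left out.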

Additional observations from a re-analysis of the deposited data

How the results depend on the processing

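IRS2 and IGF2R passed the ratio criterion in RMG1 under quantile normalization, centring and each siRNA alone (IGFBP3 also with #A alone, IRS1 also with #B alone), but at 2-fold and 0.5-fold 0 members passed. In OVCAR3, 2 members, INSR and IGFBP7, passed after quantile normalization and 2 after centring, and 1 to 4 with single siRNAs (IRS1, INSR, IGF1R and IGFBP7 with #A). At 2-fold and 0.5-fold, 75 named genes were higher and 75 lower in RMG1 (main 444 and 478) and 89 higher and 60 lower in OVCAR3 (main 541 and 379), and of the other pathway genes 0 passed in RMG1 and 3 in OVCAR3 (main 6 and 10). With 1 siRNA left out the counts were 1076 to 1510 higher and 1222 to 1567 lower in RMG1 and 1341 to 1394 higher and 1167 to 1243 lower in OVCAR3, since 1 siRNA alone then has to pass. limma called 0 members in either siRNA comparison under every alternative run; with control probes included it called 1 probe in RMG1. Between the lines, 3 to 5 members were called with 1 array left out, and 5, IRS1 added, in the fit of 4 groups. Of all 21448 transcript probes, 6828 to 7313 were called with 1 array left out and 7166 in the fit of 4 groups. With 1 array left out, 4 of the 6 differences that failed the main test changed sign in at least 1 run. Their ranges were -0.0738 to 0.57 for INSR, -0.0544 to 0.56 for IGF2R, -0.049 to 0.13 for IGFBP2 and -0.54 to 0.29 for IGFBP3. With probes above background in no array left out, IRS1, INSR, IGFBP2, IGFBP4 and IGFBP6 were not tested. No paired analysis was possible because #A and #B name different siRNAs in each line and each control is 1 array.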
